A study of Homo sapiens with 6 samples.

Results

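The transcripts of the mitochondrial genome were examined by RNA-seq in 6 libraries whose labels name PANC-1 cells, a long-established line grown from a human pancreatic ductal carcinoma. Members were all genes of the deposited count table whose symbol starts with MT-, which gave 37 of 60623 genes: 13 mRNA genes, 2 rRNA genes and 22 tRNA genes, all on chromosome M in GENCODE 29 (GRCh38). The cells were grown in DMEM with serum. Cells of 3 libraries carried a hairpin RNA directed at STN1, a subunit of a telomere replication complex, and those of the other 3 a control hairpin that the library descriptions call scramble, with a wild-type genotype label. The genotype labels of shSTN1 replicates 2 and 3 read STN2 and STN3 knockdown, and the titles were used for grouping. Whether the cells were clones, and how long they carried the hairpin, is not given in the sources used here.

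The human mitochondrial genome is a small circle that encodes core subunits of the respiratory chain and the rRNAs and tRNAs that translate them. Both strands are transcribed from end to end into long precursors, and cleavage at the tRNAs that punctuate them releases the mRNAs and rRNAs, so the level of each product depends on how it is processed and how long it lasts. Genes annotated on the plus strand come from the heavy-strand promoter, and the minus-strand genes, MT-ND6 and 8 tRNAs, from the light-strand promoter. This genome supplies subunits of complexes I, III, IV and V, and the nucleus supplies the others. Carcinoma lines often keep up respiration beside a high rate of glycolysis.

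Libraries held 17357223 to 23336942 counted reads. The targeted gene, STN1, had 387, 346 and 278 reads in control replicates 1 to 3 and 303, 306 and 275 in the shSTN1-labelled replicates (log2 fold change -0.15, edgeR adjusted p = 0.253), so its mRNA did not separate the labels. Over 17451 tested genes, edgeR called 74.1% at an adjusted p under 0.05, with 35.6% higher and 38.5% lower under the shSTN1 label. All 9 tested of 10 epithelial carcinoma markers were higher there (summed level 5568 to 5736 CPM against 925 to 988 CPM), and 8 of 9 tested of 10 embryonic kidney line markers were lower (85.7 to 89.5 CPM against 923 to 988 CPM). The exception among the latter, PAX2, was higher under the shSTN1 label (62.4 ± 1.96 CPM against 24.2 ± 0.742 CPM in control). It made up most of the kidney marker sum left there. CDKN2A had 11753 reads over the control libraries and 0 over the others, although PANC-1 is described as lacking this gene. An effect of the hairpin and a difference between cells cannot be told apart below, and every direction is between libraries as labelled. Of 5 leukocyte, 5 fibroblast and 5 endothelial markers, 2, 2 and 1 were tested, with summed levels of 4.17 to 5.25, 45.2 to 51.4 and 1.19 to 2.19 CPM in control and 1.42 to 1.59, 120 to 132 and 1.93 to 2.49 CPM in the other group. CD3E and PECAM1 had 0 reads in every library, PTPRC had 0 to 2, and nearly all fibroblast signal was COL1A1. The part of these markers in the mitochondrial levels was not tested.

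All 13 mitochondrial mRNA genes were higher under the shSTN1 label at an edgeR adjusted p under 0.05, a call that 35.6% of all genes met. The 13 also passed at 0.01, as did 66.6% of all genes in either direction, and against a fold of 1.2 by glmTreat, as did 61.7%. For all 13 the groups did not overlap, which held for 75.6% of all genes (36.6% higher, 39% lower). As a class the mRNAs stood at 43118 ± 2763 CPM (reads scaled to a common library total with TMM factors; ± is the SD, n = 3) in control, against 79302 ± 1836 CPM, 1.84-fold higher. The rRNA genes together stood at 5560 ± 899 and 6613 ± 17.4 CPM. The median log2 fold change over the 13 mRNAs was 0.77, beside -0.03 over all genes tested. Mitochondrial genes took 5.64%, 5.13% and 4.93% of counted reads in control replicates 1 to 3 and 7.84%, 8.09% and 8.28% in shSTN1 replicates 1 to 3. The shares of the groups did not overlap, and their 95% Wilson intervals, which cover counting error only, reached at most 0.0125 percentage points to either side. The exact two-sided permutation test over libraries gave p = 0.1, the smallest that 3 libraries against 3 allow. In bulk RNA, more transcripts per cell and more cells of a type rich in mitochondrial RNA cannot be told apart, and mitochondrial DNA was not measured.

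**Figure D1:**
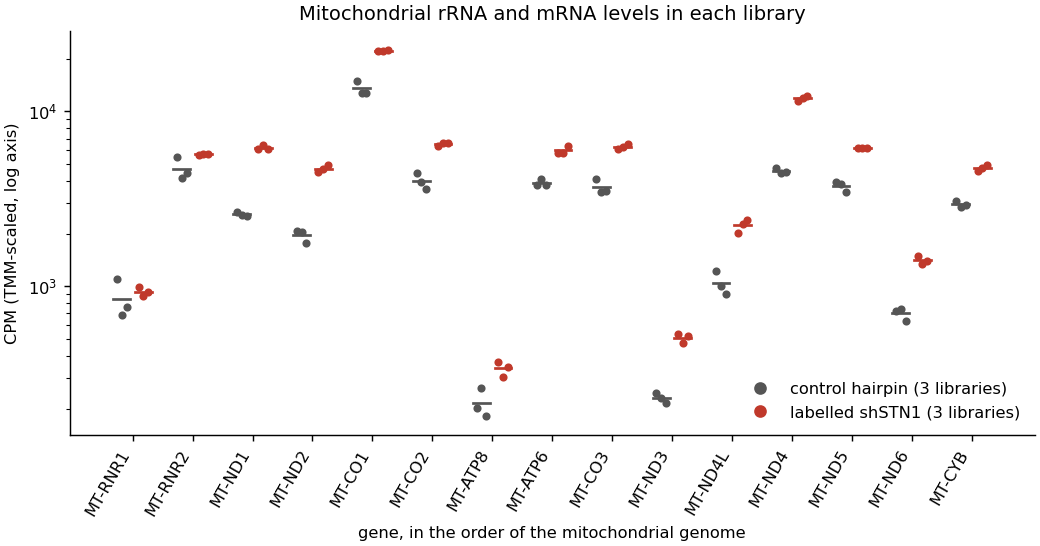
Levels of the 2 rRNA and 13 mRNA genes in each library (points) with the group mean (bar), in TMM-scaled CPM on a log axis, in genome order. For all 13 mRNAs every shSTN1-labelled library lay above every control library, whereas MT-RNR1 overlapped between groups.

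Complex I, the NADH dehydrogenase that feeds electrons into the chain, has 7 mitochondrially encoded subunits in its membrane arm, and their mRNAs, MT-ND5 excepted, had the largest fold changes among the mRNAs. The 7 genes summed to 14838 ± 781 CPM in control against 33166 ± 780 CPM, 2.24-fold higher. MT-ND4 (chrM:10760-12137), which encodes a proton-pumping subunit, stood at 4744, 4442 and 4533 CPM in control replicates 1 to 3 and at 11513, 11948 and 12315 CPM in shSTN1 replicates 1 to 3, the order kept for all values below. The spread within each group was small beside the gap between them, and edgeR gave a log2 fold change of 1.38 ± 0.0397 (SE; adjusted p = 3.48e-19). Each SE here and below is that of the difference of group mean log2 CPM, not of the edgeR fit.

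MT-ND1 (chrM:3307-4262), which helps form the quinone chamber, stood at 2644, 2564 and 2518 CPM against 6060, 6392 and 6124 CPM. MT-ND2 (chrM:4470-5511), another pumping subunit, stood at 2070, 2048 and 1763 CPM against 4522, 4713 and 4913 CPM. Both had a log2 fold change of 1.27 (SE 0.0313 and 0.0824, edgeR adjusted p = 1.96e-18 and 1.77e-17), with no overlap between groups. MT-ND3, the short subunit at the joint of the arms, had 245, 231 and 215 CPM against 533, 476 and 521 CPM (log2 fold change 1.15 ± 0.0742 SE, adjusted p = 1.14e-16 by edgeR).

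MT-ND4L, a small membrane subunit, was more scattered, at 1218, 1011 and 899 CPM in control against 2017, 2283 and 2384 CPM. The edgeR estimate was 1.10 ± 0.147 (SE; adjusted p = 4.13e-12). MT-ND6 is the only mRNA gene on the minus strand. It had 724, 746 and 635 CPM against 1494, 1347 and 1395 CPM (log2 fold change 1.01 ± 0.0842 SE, adjusted p = 4.94e-15 by edgeR). MT-ND5, the largest pumping subunit, differed least within complex I, with 3947, 3844 and 3472 CPM against 6187, 6142 and 6219 CPM (log2 fold change 0.72 ± 0.0566 SE, adjusted p = 7.90e-12 by edgeR).

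The mRNAs of the other complexes had log2 fold changes of 0.61 to 0.77, below the 1.01 to 1.38 of the complex I genes other than MT-ND5. MT-ND5, at 0.72, lay within the range of the other complexes and was set apart only after its value was seen. Complex IV, cytochrome c oxidase, takes its catalytic core from 3 mitochondrial genes. MT-CO1 (chrM:5904-7445), which holds the oxygen-reducing haem and copper centre, was the most abundant member, at 14964, 12770 and 12825 CPM in control against 22016, 22257 and 22562 CPM. The edgeR estimate was 0.72 ± 0.0759 (SE; adjusted p = 3.33e-11). MT-CO2, which receives electrons from cytochrome c, had 4459, 3944 and 3608 CPM against 6302, 6582 and 6572 CPM (log2 fold change 0.70, adjusted p = 9.74e-11 by edgeR). MT-CO3, a structural core subunit, had 4089, 3457 and 3492 CPM against 6106, 6239 and 6528 CPM (0.77, adjusted p = 5.49e-12 by edgeR). Control replicate 1 was highest in its group for all 3 genes and still lay below every library of the other group.

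MT-CYB (chrM:14747-15887), the cytochrome b of complex III and its only mitochondrially encoded subunit, stood at 3072, 2838 and 2929 CPM against 4574, 4719 and 4966 CPM. The groups did not overlap, and edgeR estimated a log2 fold change of 0.69 ± 0.0480 (SE; adjusted p = 1.39e-11). Complex V, the ATP synthase, has its proton channel subunit encoded by MT-ATP6, at 3818, 4135 and 3794 CPM against 5812, 5822 and 6333 CPM (log2 fold change 0.61 ± 0.0572 SE, adjusted p = 3.30e-10 by edgeR). MT-ATP8, an accessory subunit, had the widest scatter of the mRNAs, at 202, 262 and 181 CPM against 371, 304 and 346 CPM (0.66, SE 0.179, edgeR adjusted p = 3.93e-05).

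**Figure D2:**
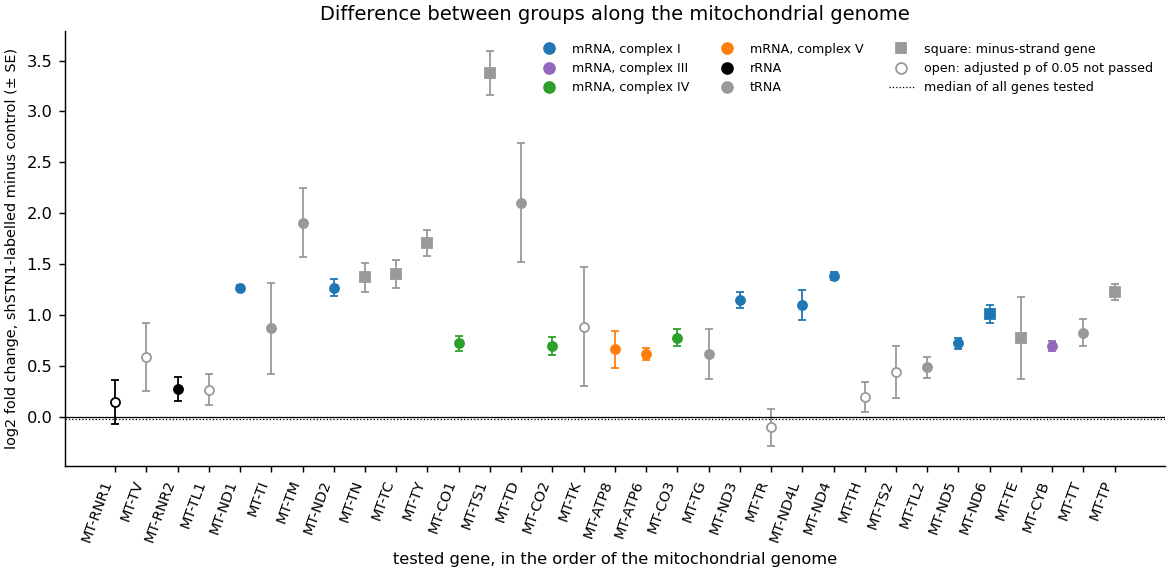
Log2 fold change (shSTN1-labelled minus control, ± SE) of the 33 tested members in genome order, coloured by class and complex; squares are minus-strand genes and open symbols did not pass the adjusted p of 0.05. Complex I mRNAs other than MT-ND5 lie at 1.01 to 1.38, MT-ND5 at 0.72, the mRNAs of complexes III, IV and V at 0.61 to 0.77, and the rRNA genes at 0.14 and 0.27.

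MT-ATP8 with MT-ATP6, and MT-ND4L with MT-ND4, are each translated from a shared mRNA whose reading frames overlap. The overlaps are shown because reads in them belong to both genes. The sequences are from GENCODE 29 transcripts (GRCh38, plus strand). Each begins 12 bases before the overlap, and capitals mark the start codon of the downstream gene.
MT-ATP8 into MT-ATP6, chrM:8515-8572: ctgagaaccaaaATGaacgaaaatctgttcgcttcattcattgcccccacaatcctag
MT-ND4L into MT-ND4, chrM:10748-10766: aaacctactccaATGctaa

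The first overlap spans 46 bases, 22.2% of MT-ATP8 and 6.75% of MT-ATP6, and the second 7 bases, 2.36% of MT-ND4L and 0.508% of MT-ND4. How the counting treated reads that touch both genes is not given in the sources used here. Per kilobase, MT-ATP6 had 5.73, 4.80 and 6.38 times the reads of MT-ATP8 in control and 4.77, 5.82 and 5.57 times in the shSTN1-labelled libraries, so the groups overlapped. The ratio of MT-ND4 to MT-ND4L was 0.839, 0.947 and 1.09 in control and 1.23, 1.13 and 1.11 in the other group, without overlap. The exact two-sided permutation p was 0.7 for the first ratio and 0.1 for the second. Over the 11 ratios computed, whose pairs were picked after the fold changes had been seen, the adjusted values were 0.7 and 0.157.

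Per kilobase of gene, the order of the mRNAs in control began with MT-CO1 at 8768 ± 811 CPM per kb, followed by MT-CO2 at 5853 ± 627 and MT-ATP6 at 5750 ± 280 CPM per kb, which did not differ beyond their spread. MT-CO3 (4693 ± 453), MT-ND4L (3510 ± 546) and MT-ND4 (3319 ± 113 CPM per kb) came next, the last of these within the spread of MT-ND4L. MT-ND1 (2694 ± 67.1) and MT-CYB (2582 ± 104 CPM per kb) lay close together, above MT-ND5 (2072 ± 138), MT-ND2 (1881 ± 164) and MT-ND6 (1336 ± 113 CPM per kb). MT-ATP8 (1039 ± 203) and MT-ND3 (666 ± 43.6 CPM per kb) were lowest. In the shSTN1-labelled libraries MT-ND4 stood at 8654 ± 291 CPM per kb, within the spread of MT-ATP6 at 8794 ± 438. MT-ND2 (4526 ± 188) lay above its neighbour MT-CYB (4166 ± 174 CPM per kb) in each of these libraries. MT-CO1 (14448 ± 177) stayed at the top and MT-ND3 (1474 ± 87.3 CPM per kb) at the bottom. The lowest levels belong to 2 of the shortest mRNAs, but MT-ND4L, at 297 bases shorter than MT-ND3 at 346, stood well above both. The part of gene length in these levels was not tested.

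The mRNA pool differed in composition as well as in size. Reads of complex I genes made up 33.8%, 35.2% and 34.3% of the reads on the 13 mRNA genes in control and 41.7%, 42.03% and 41.7% in the shSTN1-labelled libraries. Complex IV genes made up 50.9%, 47.7% and 48.8% of the same reads against 44.4%, 44.3% and 43.9%. Neither pair of ranges overlapped. MT-ND4 alone made up 10.6% ± 0.425 of the pool in control and 15.0% ± 0.163 in the other group, and MT-CO1 31.3% ± 1.10 and 28.1% ± 0.306. The shares of a pool sum to a fixed total, so a gain of one gene entails a loss of others.

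Each gene was also tested against the pool, with the summed reads of the 13 mRNA genes as the library size in the edgeR fit. Relative to the pool, 5 of 13 genes were higher, 3 lower and 5 did not pass. This scaling moves nuclear genes as a whole, and 82.4% of all genes passed in it, 11.1% higher and 71.3% lower, so the count is not read against that background. MT-ND4 (0.50, adjusted p = 4.17e-08), MT-ND2 (0.39, adjusted p = 2.81e-05) and MT-ND1 (0.38, adjusted p = 3.05e-05) were higher, and their calls held in every alternative of this fit that was run. MT-ND3 (0.27, adjusted p = 0.00498) and MT-ND4L (0.22, adjusted p = 0.0189) were also higher, but MT-ND3 did not pass without shSTN1 replicate 1 (adjusted p = 0.0530). MT-ND4L did not pass without control replicate 2 (0.0522) or 3 (0.0821), or without shSTN1 replicate 2 (0.0934) or 3 (0.118).

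MT-ATP6 was lower relative to the pool (-0.27, edgeR adjusted p = 0.00347). MT-ATP8 (-0.22, adjusted p = 0.0221) and MT-CYB (-0.19, adjusted p = 0.0410) were lower by narrow margins. MT-ATP8 lost its call without control replicate 2 (0.757) or shSTN1 replicates 2 (0.240) or 3 (0.0815). MT-CYB lost it without control replicates 2 (0.0566) or 3 (0.0794) or any one of shSTN1 replicates 1 to 3 (0.0906, 0.122 and 0.0821). Both also lost it with the pool taken over all 37 genes (0.102 and 0.165) or from the median of ratios (0.0635 and 0.105). Values that did not pass were -0.16 for MT-CO1, -0.18 for MT-CO2, -0.10 for MT-CO3, -0.16 for MT-ND5 and 0.13 for MT-ND6. Of these, MT-ND5 passed without control replicate 1 (0.0483) or 3 (0.0461), and MT-CO2 without control replicate 3 (0.0151). Leaving out single libraries gave 5 to 9 genes in all. The pool shares of MT-CO1, MT-CO2, MT-CO3 and MT-ND5 were lower without overlap between groups, although these genes did not pass. Those of MT-ATP8 and MT-ND4L, which passed, overlapped, as did that of MT-ND6.

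**Figure D3:**
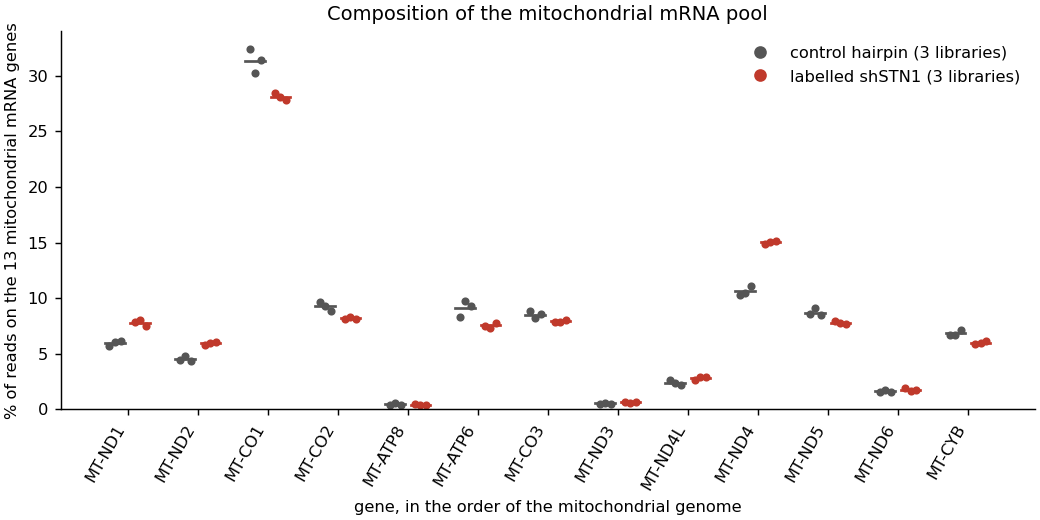
Percentage of the reads on the 13 mitochondrial mRNA genes that fell on each gene, per library (points) with the group mean (bar). MT-ND4 stands at 10.6% in control and 15.0% under the shSTN1 label, MT-ND1 at 5.98% and 7.81%, and MT-CO1 at 31.3% and 28.1%.

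The rRNA genes, which encode the RNAs of the small and large mitochondrial ribosomal subunits, lie at the start of the heavy-strand transcript. MT-RNR2 (chrM:1671-3229) had 5480, 4188 and 4473 CPM in control against 5634, 5723 and 5685 CPM. It was higher by a small margin over control replicate 1, at a log2 fold change of 0.27 ± 0.117 (SE; adjusted p = 0.00157 by edgeR). MT-RNR1 (chrM:648-1601) had 1097, 682 and 759 CPM against 998, 876 and 923 CPM. Control replicate 1 was the highest of all 6 libraries, and the log2 fold change of 0.14 did not pass (SE 0.215, edgeR adjusted p = 0.525, limma-voom 95% interval -0.04 to 0.38). Without control replicate 1 the value was 0.36 (adjusted p = 3.80e-05), and without control replicate 2 it was -0.01 (adjusted p = 0.975). With library totals alone as the scale, which shifts the median of all genes to -0.22, MT-RNR2 was at 0.07 (adjusted p = 0.367) and MT-RNR1 at -0.06 (adjusted p = 0.788).

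Against the mRNA pool both rRNA genes were lower, MT-RNR1 at -0.73 (edgeR adjusted p = 5.70e-15) and MT-RNR2 at -0.61 (adjusted p = 3.71e-11). In that fit 71.3% of all genes were lower, because the higher mRNA sum moves any gene that differs little downward. These calls restate the higher mRNA sum and are no separate sign of a fall in rRNA. The ratio of mRNA reads to rRNA reads was 7.02, 8.68 and 7.81 in control and 11.7, 12.01 and 12.3 in the shSTN1-labelled libraries, with no overlap between groups. The rRNA share of mitochondrial reads was 12.4%, 10.3% and 11.3% in control and 7.82%, 7.63% and 7.48% in the other group. MT-ND1 and MT-RNR2 are separated in the genome by the tRNA gene MT-TL1, and the per-kilobase ratio of MT-ND1 to MT-RNR2 was 0.787, 0.998 and 0.918 in control and 1.75, 1.82 and 1.76 in the other group (exact permutation p = 0.1, adjusted 0.157 over the 11 ratios). Mature mitochondrial rRNAs carry short or no poly(A) tails. Whether poly(A) RNA was selected or rRNA depleted is not given in the sources used here, and the part of either in these rRNA levels was not tested.

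The tRNA genes took 0.534% to 0.616% of mitochondrial reads in control and 0.689% to 0.802% in the shSTN1-labelled libraries. They are 59 to 75 bases long, and whether their reads come from mature tRNAs or from precursors was not tested. Of 22 genes, 14 passed the filter on low counts in both groups, of which 9 were higher, 0 lower and 5 did not pass the edgeR adjusted p of 0.05, a call that 35.6% of all genes met as higher. At an unadjusted edgeR p under 0.05 no tRNA gene was lower, nor was any by DESeq2 or limma-voom. MT-TM, MT-TS1, MT-TD and MT-TK passed the filter only through their reads in the shSTN1-labelled libraries and are left out of these counts. Their own tests called 3 higher, and 4 further genes were not tested. With library totals alone as the scale MT-TI, MT-TL2, MT-TE and MT-TT lost their calls, and by DESeq2 MT-TI, MT-TL2 and MT-TE did.

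Per kilobase, the highest tRNA levels in control were those of the minus-strand genes for cysteine (MT-TC, 1650 ± 261 CPM per kb), proline (MT-TP, 1205 ± 79.3) and asparagine (MT-TN, 390.3 ± 45.2), followed by MT-TH (214 ± 30.8 CPM per kb). In the shSTN1-labelled libraries MT-TY, for tyrosine and also on the minus strand, stood above MT-TH (382 ± 54.0 against 244 ± 24.6 CPM per kb). Sequences of these 5 genes are shown with those of MT-TS1 and MT-TR. MT-TS1 had the largest fold change of the tested members, but passed the filter only through its reads in the shSTN1-labelled libraries. MT-TR is a plus-strand gene that, like MT-TH, did not pass the test. Sequences are from GENCODE 29 (GRCh38), 5′ to 3′ along the strand of the gene, and capitals mark the anticodon.
MT-TN, chrM:5657-5729, minus: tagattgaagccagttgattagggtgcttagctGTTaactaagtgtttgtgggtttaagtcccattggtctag
MT-TC, chrM:5761-5826, minus: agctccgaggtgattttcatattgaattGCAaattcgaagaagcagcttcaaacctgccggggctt
MT-TY, chrM:5826-5891, minus: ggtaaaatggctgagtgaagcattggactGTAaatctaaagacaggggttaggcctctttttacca
MT-TP, chrM:15956-16023, minus: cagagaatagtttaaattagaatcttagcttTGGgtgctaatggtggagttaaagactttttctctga
MT-TS1, chrM:7446-7514, minus: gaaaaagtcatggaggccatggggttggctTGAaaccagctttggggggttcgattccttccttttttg
MT-TR, chrM:10405-10469, plus: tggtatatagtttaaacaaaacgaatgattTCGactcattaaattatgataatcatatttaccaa
MT-TH, chrM:12138-12206, plus: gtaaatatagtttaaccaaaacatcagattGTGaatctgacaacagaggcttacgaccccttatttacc

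MT-TC had 2235, 2833 and 1704 reads in control and 6147, 6316 and 4807 reads in the shSTN1-labelled libraries, or 109 ± 17.3 against 287 ± 13.8 CPM (log2 fold change 1.40 ± 0.138 SE, adjusted p = 7.21e-17 by edgeR). MT-TP, the last gene before the control region, had 1827, 1796 and 1430 reads against 4253, 3975 and 3278 (log2 fold change 1.23 ± 0.0799 SE, adjusted p = 1.16e-16 by edgeR). MT-TN had 671, 600 and 486 reads against 1727, 1545 and 1160 (1.37, edgeR adjusted p = 1.80e-14), and MT-TY 157, 170 and 149 against 542, 610 and 373 (1.71, edgeR adjusted p = 5.03e-14). For these 4 genes the groups did not overlap in CPM. MT-TE, for glutamate, had 15, 41 and 22 reads against 54, 47 and 29, overlapping in CPM (0.77, edgeR adjusted p = 0.0277), and did not pass without control replicate 1 (0.187) or 3 (0.0770) or shSTN1 replicate 1 (0.125).

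MT-TS1, the serine tRNA gene next to the end of MT-CO1 on the other strand, had 2, 2 and 3 reads in control. It had 21, 26 and 27 reads in the shSTN1-labelled libraries and passed the filter only through these. The log2 fold change was 3.38 (adjusted p = 9.28e-07 by edgeR), with a wide limma-voom 95% interval of 2.08 to 4.33. MT-TQ and MT-TA, the other minus-strand tRNA genes, had 0 to 11 and 0 to 7 reads per library and were not tested. Together the 8 minus-strand tRNA genes stood at 229 ± 20.1 CPM in control against 582 ± 37.5 CPM, 2.55-fold higher, and MT-ND6 on the same strand was 2.01-fold higher.

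Of 14 plus-strand tRNA genes, 9 passed the filter in both groups, with 4 higher and 5 not passed, beside 35.6% of all genes higher. Summed over the 14, they stood at 46.7 ± 4.45 CPM in control against 60.6 ± 4.02 CPM, 1.30-fold higher. MT-TH, for histidine, had 308, 376 and 232 reads against 333, 409 and 273 (log2 fold change 0.19, edgeR adjusted p = 0.159; -0.01 with library totals alone, adjusted p = 0.948). MT-TR, for arginine, was the only tested member with a negative value under the TMM scale (-0.11, edgeR adjusted p = 0.589), with 138, 145 and 83 reads against 112, 114 and 102. MT-TL1 (0.26, adjusted p = 0.0803; 0.0249 without shSTN1 replicate 1) and MT-TV (0.59, adjusted p = 0.0781; 0.0357 without control replicate 1), which flank MT-RNR2, did not pass. MT-TS2 (0.44, adjusted p = 0.0800; 0.0370 without control replicate 2) and MT-TK (0.88, adjusted p = 0.0757; 0.0297 without shSTN1 replicate 2) did not pass either.

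Among the plus-strand genes that passed, MT-TG, for glycine, had 114, 109 and 72 reads against 111, 182 and 145 (log2 fold change 0.62, edgeR adjusted p = 0.00287). MT-TM (1.91, from 4 to 9 control reads per library) and MT-TD (2.10, from 2 to 15) passed the filter only through the shSTN1-labelled libraries. MT-TI (0.87), MT-TL2 (0.48) and MT-TT (0.82) passed at edgeR adjusted p = 0.0225, 0.0274 and 0.0174, and each lost its call when single libraries were left out. MT-TI did so without control replicate 3 (0.124) or shSTN1 replicate 1 (0.277), MT-TL2 without control replicate 1 (0.0900) or 2 (0.0648) or shSTN1 replicate 3 (0.109), and MT-TT without control replicate 1 (0.0546) or shSTN1 replicate 2 (0.0780). MT-TF had 0 to 10 reads and MT-TW 1 to 8 reads per library, and they were not tested.

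**Figure D4:**
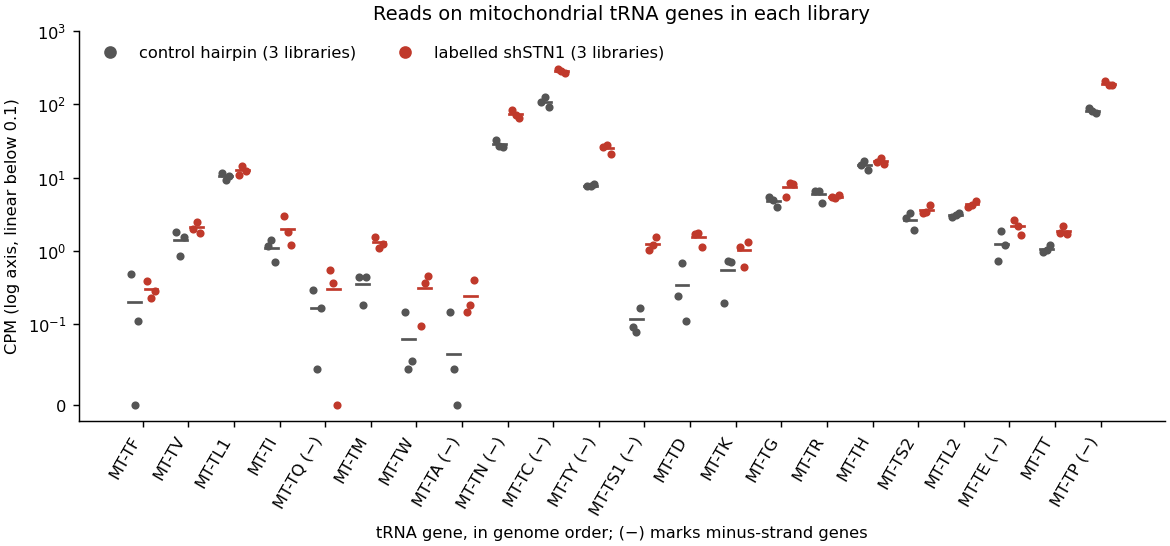
CPM of the 22 tRNA genes in each library (points) with the group mean (bar), on a log axis that is linear below 0.1, in genome order; (−) marks minus-strand genes. MT-TC, MT-TP, MT-TN and MT-TY are higher in every shSTN1-labelled library than in any control library, while MT-TR and MT-TH overlap.

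Few bases lie between the genes of this genome. MT-TN and MT-TC are separated by 31 bases without a gene, MT-TY has 12 such bases before MT-CO1, and MT-TP borders the control region. MT-TK, next to 25 such bases, had 4 to 23 reads per library, and MT-TF, at the other edge of the control region, 0 to 10. The part of this layout in the tRNA levels was not tested. The library kit named in the labels does not mark strand, so reads from a minus-strand gene and from the opposite precursor cannot be told apart, MT-ND6 included.

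Nuclear genes that transcribe, process and translate the mitochondrial genome were called in both directions. Over 129 tested genes of 10 lists, 36 were higher and 58 lower, 72.9% passing beside 74.1% of all genes, with a median log2 fold change of -0.16. The counts of every list below stand beside 35.6% of all genes higher and 38.5% lower. In the transcription list, 5 of 10 were higher and 3 lower (median 0.20). POLRMT, the mitochondrial RNA polymerase, fell from 226 ± 21.8 to 153 ± 3.07 CPM (-0.56, edgeR adjusted p = 6.66e-09), and TFAM, which bends the promoters and packages the DNA, from 82.6 ± 9.41 to 58.9 ± 5.15 CPM (-0.49, edgeR adjusted p = 4.60e-06), while MTERF4 rose (0.42). In the DNA replication list 5 of 16 were higher and 6 lower (median -0.02), with the exonuclease gene MGME1 (-0.84) and the topoisomerase genes TOP1MT (-0.56) and TOP3A (-0.44) lower.

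Of 5 genes that cleave the precursors, 1 was higher and 2 lower (median 0.03), beside 35.6% of all genes higher and 38.5% lower. ELAC2, which cuts the 3′ ends of tRNAs, fell from 225 ± 1.31 to 140 ± 3.28 CPM (-0.68, edgeR adjusted p = 1.28e-11), and of the RNase P subunits TRMT10C fell (-0.60) and HSD17B10 rose (0.37). In the RNA stability and decay list 4 of 16 were higher and 7 lower (median -0.17). The deadenylase gene PDE12 (-0.89) and the poly(A) polymerase gene MTPAP (-0.86) fell, and the oligoribonuclease gene REXO2 rose (0.52).

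Of 15 tRNA maturation genes 7 were higher and 6 lower (median 0.18), with GTPBP3, which modifies the wobble base, at -2.22 (175 ± 14.5 to 37.6 ± 1.42 CPM), and TRNT1, which adds the terminal CCA, at 0.72 and PUS1 at 0.55. Of 9 rRNA modification genes 1 was higher and 3 lower (median -0.19), the latter MRM3 (-0.79), NSUN4 (-0.41) and MRM1 (-0.35). Among 17 aminoacyl-tRNA synthetase genes, 5 passed as higher and 8 as lower (median -0.15), beside 35.6% of all genes higher and 38.5% lower. Those for leucine (LARS2, -1.73, edgeR adjusted p = 1.34e-19) and threonine (TARS2, -1.67, edgeR adjusted p = 6.09e-19) were among the lower ones. The 13 translation factor genes split into 9 lower, 1 higher and 3 not passed (median -0.37), with the recycling factor gene GFM2 (-0.98) and the initiation factor gene MTIF2 (-0.76) lower and the rescue factor gene MTRFR, listed as C12orf65, higher (0.69).

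Of 9 regulators of mitochondrial biogenesis, 6 passed as lower and 2 as higher (median -0.38), beside 38.5% of all genes lower and 35.6% higher. MYC fell from 280.4 ± 3.70 to 112 ± 4.01 CPM (-1.32, edgeR adjusted p = 8.22e-19), and the coactivator genes PPARGC1A (-2.65, from 2.87 ± 0.411 CPM) and PPARGC1B (-1.03) fell. Of 21 assembly factor genes for complexes I, III and IV, 5 passed as higher and 8 as lower (median -0.04), with ECSIT (-0.94) and SCO1 (-0.72) lower and UQCC2 (0.76) higher.

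Nuclear subunits of the 4 complexes were also called in both directions. Of 74 tested, 33 were higher and 19 lower, with a median of 0.13. The 70.3% that passed was near the 74.1% of all genes (35.6% higher, 38.5% lower), beside which the counts per complex also stand. For complex I, 14 of 37 were higher and 8 lower (median 0.12, with NDUFB5 at 1.15, NDUFB2 at 0.86 and NDUFS4 at 1.08), beside 7 of 7 mitochondrial genes at a median of 1.15. For complex IV, 7 of 11 were higher and 1 lower (median 0.41), among them COX6C (0.74), COX6B1 (0.73) and COX7A2 (0.72), beside 0.72 for the mitochondrial genes. Complex III had 4 of 9 higher and 3 lower (median 0.04, UQCRFS1 at 0.81, UQCR11 at -0.91, UQCR10 at -0.83). Complex V had 8 of 17 higher and 7 lower (median 0.00, ATP5PD at 1.28, ATP5MC1 at 0.90, ATP5PB at -0.80). These counts and medians are descriptions, and the difference between the nuclear and mitochondrial genes was not tested.

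**Figure D5:**
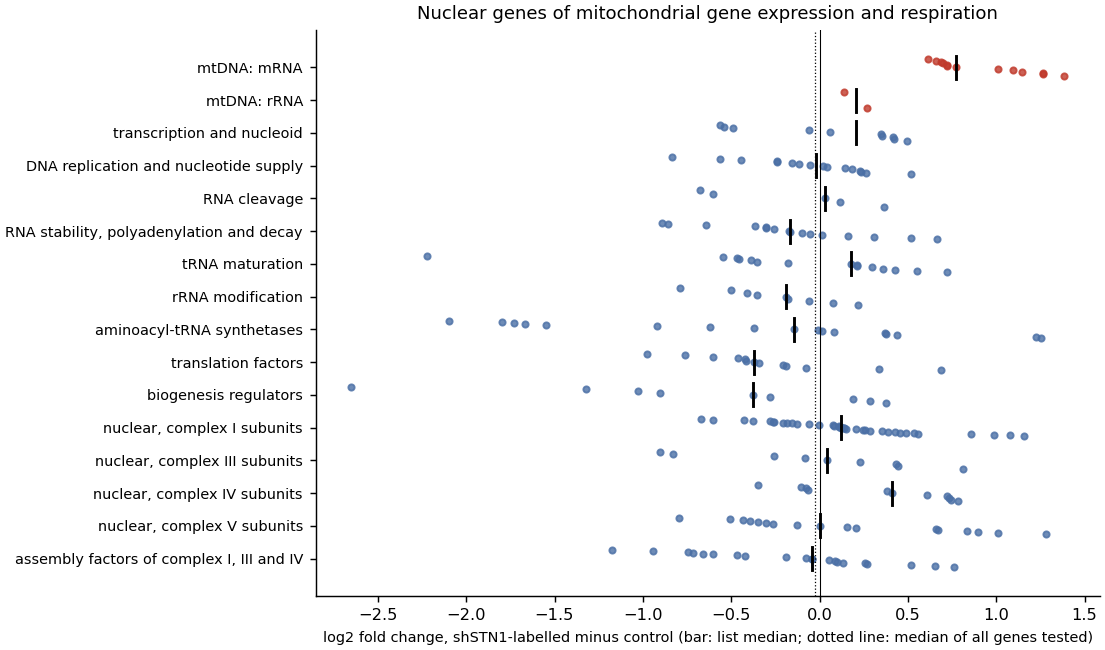
Log2 fold change (shSTN1-labelled minus control) of the mitochondrial mRNA and rRNA genes (red) and of each tested nuclear gene in 14 lists (blue), with list medians as bars and the median of all genes as a dotted line. All 13 mitochondrial mRNAs lie above 0.60, while each nuclear list spans both sides of 0.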

How the data were processed

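Raw whole-number read counts per gene were deposited for 6 libraries. The submitters' processing notes name cutadapt, FastQC, STAR (2.7.2b), featureCounts (2.0.1) and GRCh38; the sources used here do not give annotation release, strand setting or RNA selection. Of 60668 rows, 45 pseudoautosomal copies were left out. Counts were fitted over all 6 libraries without covariates by edgeR 4.0.16 (R 4.3.3; filterByExpr, TMM, robust quasi-likelihood test, Benjamini-Hochberg over 17451 genes, threshold 0.05). SEs are of differences of group mean log2 CPM (prior count 2), not of the edgeR fit. For MT-TS1, with few control reads, the SE of 0.217 is narrow beside the limma-voom interval of 2.08 to 4.33. A second fit took the summed mitochondrial mRNA reads as library size. Alternatives used DESeq2 1.42.0, limma 3.58.1, other scalings, filters and thresholds, a replicate block and left-out libraries. In counts simulated with 16549 of 16744 genes unchanged, 67.3% of genes changed 1.5-fold and 85.7% of those changed 2-fold were recovered. Of the calls there, 5.15% were false. In the data 74.1% of genes were called, so the simulation does not give the rates that hold here. Replicate libraries varied beyond sampling noise (3.02 to 8.90 chi-square units per degree of freedom). They are labelled biological, with no word on separate cultures, so p-values cover only the spread among these libraries, which may be technical. All members are reported; of each nuclear list up to 3 genes with the smallest adjusted p are named (1 such gene is not reported here), and of nuclear copies the 5 with most reads. Members and lists were chosen with earlier results of these data known. Positions and sequences come from GENCODE 29. Python 3.11.15 and matplotlib 3.10.9 made the plots.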

Additional observations from a re-analysis of the deposited data

How the results depend on the processing

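All 13 mRNA genes were higher under every alternative of scaling, filter, test, threshold, block and left-out library that was run, beside 18.3% to 37.5% of all genes. The difference in the mitochondrial share stayed between 2.68 and 3.04 percentage points. Of the rRNA genes, 1 passed in the reported fit, 0 with library totals alone, 0 against a fold of 1.2 by glmTreat, and 1 to 2 with single libraries left out. Over all genes, the shares higher under these settings were 35.6%, 28.3%, 29.6% and 33.1% to 34.2%. With library totals alone MT-RNR1 turned to -0.057 and MT-TH to -0.0095. MT-RNR1 ranged from -0.0056 without control replicate 2 to 0.358 without control replicate 1. The cause of these changes was not tested. Of 18 tRNA genes tested, 12 passed in the reported fit, 8 with library totals alone, 8 at an adjusted p under 0.01 and 9 by DESeq2. All were higher, as were 35.6%, 28.3%, 31.8% and 33.9% of all genes under the same settings. With single libraries left out 10 to 12 passed, beside 33.1% to 34.2% of all genes higher. Without the low-count filter 11 of 22 tested passed, and with at least 1 CPM in 3 libraries 11 of 16, beside 18.3% and 37.5% of all genes higher. Under the other alternatives 10 to 12 passed, beside 29.6% to 35.7% of all genes higher. The 12 tRNA genes of the reported fit include 3 that passed the filter only through the shSTN1-labelled libraries. Relative to the mRNA pool, 8 genes passed in the reported fit and 5 to 9 with single libraries left out, 5 without control replicate 2 or shSTN1 replicate 2 or 3. Over all genes, 82.4% passed in the reported pool fit and 78.3% to 80.2% with single libraries left out, most of them lower. With the replicate block, 2 rRNA genes (MT-RNR1 at an edgeR adjusted p of 0.0397) and 5 genes relative to the pool passed, the latter without MT-ATP8, MT-ND4L and MT-CYB. Under the block 35% of all genes were higher, and relative to the pool 80.5% passed, 10.6% higher and 69.9% lower. Same-numbered libraries deviated with correlations of -0.01, 0.02 and -0.03, and the numbers were not taken as a pairing. Depth limits the tRNA genes with under 10 reads in a library.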

Other observations

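Nuclear copies of mitochondrial sequence were found by symbol in 407 rows, 92 of them with reads. Of 5 that passed the filter in every library, edgeR called 4 higher under the shSTN1 label and 0 lower, beside 35.6% of all genes higher and 74.1% called in either direction, and MTCO2P12 did not pass (-0.25, adjusted p = 0.598). MTND5P11, MTCO3P12 and MTND6P4 were tested through the shSTN1-labelled libraries, as their control reads were under the filter in at least 1 library. All copies together held 1574 to 1931 reads per control library and 2343 to 2739 per shSTN1-labelled library, or 0.140% to 0.184% of the reads on mitochondrial genes. MTATP6P1 (chromosome 1, 633696 to 634376 in GRCh38) had most, with 66.1 ± 2.78 CPM in control against 90.8 ± 9.06 CPM (0.46, edgeR adjusted p = 3.95e-06), beside 0.61 for MT-ATP6. MTND2P28 (1.11) and MTCO1P12 (0.94) lie in the same stretch of chromosome 1, and MTND4P12 (0.96) and MTND5P11 (1.36, from 9 to 16 control reads per library) on chromosome 5.

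Of the members, 12 of 37 held runs of 50 bases that also occur in these copies. The share of such runs was 49.5% for MT-CO1, 46.7% for MT-ATP6, 43.6% for MT-ND2, 30.6% for MT-CO3, 22.1% for MT-ND1 and 17.9% for MT-ND6. It was 8.23% for MT-ATP8, 4.76% for MT-ND5, 3.54% for MT-ND4, 1.19% for MT-CYB and 0% for MT-ND3, MT-ND4L and MT-RNR1. The search by symbol found no copy of MT-RNR1 or of a tRNA gene. The 0% of MT-RNR1 and of the tRNA genes therefore does not show that they lack nuclear copies. MT-CO2 lay between MT-CO3 and MT-ND1, and MT-RNR2 between MT-ND6 and MT-ATP8. How reads that match several places were counted is not given in the sources used here. The part of this sharing in the levels was not tested.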
